A study of Mus musculus with 20 samples.

Results

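The interleukin 1 and 18 system was described through 9 mouse genes chosen by name: the agonists Il1a and Il1b, the antagonist Il1rn, the receptor Il1r1, the inflammasome genes Nlrp3 and Casp1, the cytokine Il18, its soluble inhibitor Il18bp and its receptor chain Il18r1. All 9 were found among the 55260 genes to which the deposited transcript counts were summed, and all 9 passed the filter on low counts in every comparison. The samples were 20 RNA-seq libraries of cells sorted from MC38-OVA tumours, a mouse colon carcinoma line carrying the ovalbumin antigen, grown in C57BL/6 mice. The 5 treatment groups were radiotherapy (8 Gy, focal, on day 12) with anti-SIRPa (400 µg a dose) and anti-PD-1 (250 µg a dose), called the triple combination; radiotherapy (RT) with anti-PD-1; RT with anti-SIRPa; RT alone; and untreated, which the series' design text describes as sham irradiated. Tumours were taken on day 17, 5 days after irradiation, and sorted into CD8 T cells and 3 myeloid populations, CD11c+CD11b-, CD11c+CD11b+ and CD11c-CD11b+. Each library held cells pooled from 10 mice, with 1 library for each population and treatment, and library totals ran from 21522743 to 35696925 counts. Within a population the spread is therefore that between pools given different treatments, and fewer cells of a type cannot be told apart from less RNA per cell.

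Interleukin 1 alpha and beta bind the receptor encoded by Il1r1, which signals through MyD88, and the antagonist encoded by Il1rn occupies the same receptor without signalling. Interleukin 1 beta and interleukin 18 are made as precursors that caspase 1 (Casp1) cleaves once a sensor such as NLRP3 has assembled an inflammasome. Myeloid cells are the usual source of interleukin 1 beta, while interleukin 18 acts on T and natural killer (NK) cells through Il18r1 and its partner Il18rap and is held in check by the binding protein Il18bp. The libraries measure messenger RNA, so cleavage and release of the proteins were not measured.

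The sort genes followed the labels in the myeloid libraries. Itgam, which encodes CD11b, was at 57.8 to 117 CPM (normalised counts for a library of standard size) in CD11c+CD11b- cells, against 1267 to 1654 in CD11c+CD11b+ and 749 to 1873 in CD11c-CD11b+ cells. Itgax, which encodes CD11c, was at 264 to 393 in CD11c+CD11b- and 323 to 417 in CD11c+CD11b+ cells, against 71.5 to 122 in CD11c-CD11b+ cells. The titles call both CD11c+ populations dendritic cells, but the CD11c+CD11b- libraries also carried the NK gene Ncr1 at 205 to 301 CPM, and the CD11c+CD11b+ libraries the macrophage gene C1qa at 701 to 1507 CPM. Of the CD8 T libraries, the 4 irradiated ones held Cd8a at 759 to 1184 CPM and Csf1r, a macrophage gene, at 129 to 264 CPM. The library labelled untreated CD8 T went against its label, with Cd8a at 48.2 CPM and Csf1r at 1759 CPM. Results that rest on this library are given with and without it, and every comparison of irradiated with untreated CD8 T cells rests on it.

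The upstream sequences of 4 of the genes are shown because their levels divide the populations: Il1a, Il1b and Il1rn, high in CD11b+ cells, and Il18r1, high in CD8 T and CD11c+CD11b- cells. Each window runs from 250 bases before to 50 bases after a RefSeq transcript start (GRCm38.p6), printed 5′ to 3′ on the gene's own strand, with motif matches in capitals. Il1a lies at chr2:129309923-129310222 (minus strand), Il1b at chr2:129371090-129371389 (minus strand), the upstream start of Il1rn at chr2:24336610-24336909 (plus strand), its downstream start at chr2:24345041-24345340 (plus strand) and Il18r1 at chr1:40465756-40466055 (plus strand).
Il1a: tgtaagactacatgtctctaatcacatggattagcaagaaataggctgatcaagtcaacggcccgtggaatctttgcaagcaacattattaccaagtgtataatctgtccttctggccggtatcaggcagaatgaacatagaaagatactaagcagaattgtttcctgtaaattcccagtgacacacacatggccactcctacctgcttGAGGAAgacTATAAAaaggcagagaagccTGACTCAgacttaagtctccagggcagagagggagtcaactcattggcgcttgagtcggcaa
Il1b: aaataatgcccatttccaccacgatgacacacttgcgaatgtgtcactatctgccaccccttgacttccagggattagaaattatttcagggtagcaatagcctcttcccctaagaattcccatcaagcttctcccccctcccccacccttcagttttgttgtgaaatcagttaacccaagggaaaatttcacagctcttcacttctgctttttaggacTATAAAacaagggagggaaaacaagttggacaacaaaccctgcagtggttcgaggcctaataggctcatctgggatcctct
Il1rn upstream start: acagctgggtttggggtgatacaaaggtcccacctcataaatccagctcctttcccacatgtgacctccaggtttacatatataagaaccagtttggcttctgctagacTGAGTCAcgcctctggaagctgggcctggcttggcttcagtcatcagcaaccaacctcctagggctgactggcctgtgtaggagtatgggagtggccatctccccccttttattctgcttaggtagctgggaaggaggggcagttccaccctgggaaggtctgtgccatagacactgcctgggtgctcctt
Il1rn downstream start: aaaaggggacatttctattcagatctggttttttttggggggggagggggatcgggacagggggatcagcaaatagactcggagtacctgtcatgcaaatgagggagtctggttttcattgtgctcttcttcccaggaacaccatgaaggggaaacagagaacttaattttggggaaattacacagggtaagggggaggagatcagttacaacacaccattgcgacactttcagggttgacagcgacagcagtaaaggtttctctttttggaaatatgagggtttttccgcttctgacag
Il18r1: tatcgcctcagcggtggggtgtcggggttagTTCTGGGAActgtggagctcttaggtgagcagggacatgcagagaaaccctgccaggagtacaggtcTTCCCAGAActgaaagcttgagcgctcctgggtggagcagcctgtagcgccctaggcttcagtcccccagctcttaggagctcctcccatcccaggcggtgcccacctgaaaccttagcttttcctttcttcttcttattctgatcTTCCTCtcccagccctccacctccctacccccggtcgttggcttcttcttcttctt
In these windows 7 motifs were searched on both strands: the TATA box (TATAAA), AP-1 (TGANTCA), NF-kB (GGGANNTTC), C/EBP (TTGCNNAA), ETS or PU.1 (GAGGAA), GAS or STAT (TTCNNNGAA) and ISRE or IRF (GAAANNGAA). No match overlapped another. Il1a held a TATA box at -32 from the start, an AP-1 match at -12 and an ETS match at -41, and Il1b held a TATA box at -31. The upstream Il1rn start had an AP-1 match at -141, and the downstream start had none of the 7. Il1rn has another downstream window, chr2:24345121-24345420, which is not printed and which held a TATA match at 14 bases after its start. Il18r1 had GAS matches at -219 and -152 and an ETS match at -6, and no TATA box, and the other 2 windows of this gene, which are not printed, held no match. Among all 32817 RefSeq windows of the same length, 13.6% held the TATA letters, 7.81% AP-1, 3.94% NF-kB, 10.8% C/EBP, 28.3% ETS, 8.29% GAS and 8.55% ISRE. These are matches of letters, and binding was not measured.

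Il1b, the secreted agonist, had the highest mean of the 9 genes over the irradiated pools of every population when levels were scaled by transcript length. Its length-scaled level in irradiated pools averaged 1417 ± 371 TPM in CD11c-CD11b+ cells and 878 ± 116 in CD11c+CD11b+ cells, against 146 ± 58.2 in CD11c+CD11b- and 114 ± 29.3 in CD8 T cells (SD, n = 4 pools each). In CD8 T cells Il18r1 exceeded Il1b with the triple combination (104 against 91.1 TPM) and with RT and anti-PD-1 (98.6 against 86.8 TPM). It did not with RT and anti-SIRPa (101 against 141 TPM) or RT alone (102 against 138 TPM). By mean CPM, not scaled to length, Il18r1 exceeded Il1b in irradiated CD8 T (182 against 73.1) and CD11c+CD11b- cells (98.4 against 93.0). In CD11c-CD11b+ cells Il1b was at 856 CPM with the triple combination, 1116 with RT and anti-PD-1, 1265 with RT and anti-SIRPa, 641 with RT alone and 344 untreated. In CD11c+CD11b+ cells it was at 646 CPM with the triple combination, 699 with RT and anti-PD-1, 657 with RT and anti-SIRPa, 642 with RT alone and 595 untreated. The first of these populations varied several-fold from pool to pool, while the second was nearly level. The CD11c+CD11b- libraries held 79.1 CPM with the triple combination, 128 with RT and anti-PD-1, 51.5 with RT and anti-SIRPa, 114 with RT alone and 37.9 untreated. CD8 T libraries held 61.4 CPM with the triple combination, 57.3 with RT and anti-PD-1, 84.3 with RT and anti-SIRPa and 89.2 with RT alone, against 464 in the library labelled untreated CD8 T. That library therefore sat with the CD11b+ cells and apart from the other CD8 T libraries. Neutrophil markers (9 genes) rose in the order of Il1b over the irradiated pools of CD11c-CD11b+ cells. The untreated pool, lowest in Il1b, was not the lowest in these markers. Their summed level was 970 CPM with the triple combination, 1584 with RT and anti-PD-1, 3069 with RT and anti-SIRPa, 604 with RT alone and 755 untreated, with at most 1 of the 9 at 0. Their part in the level of Il1b was not tested.

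**Figure D1:**
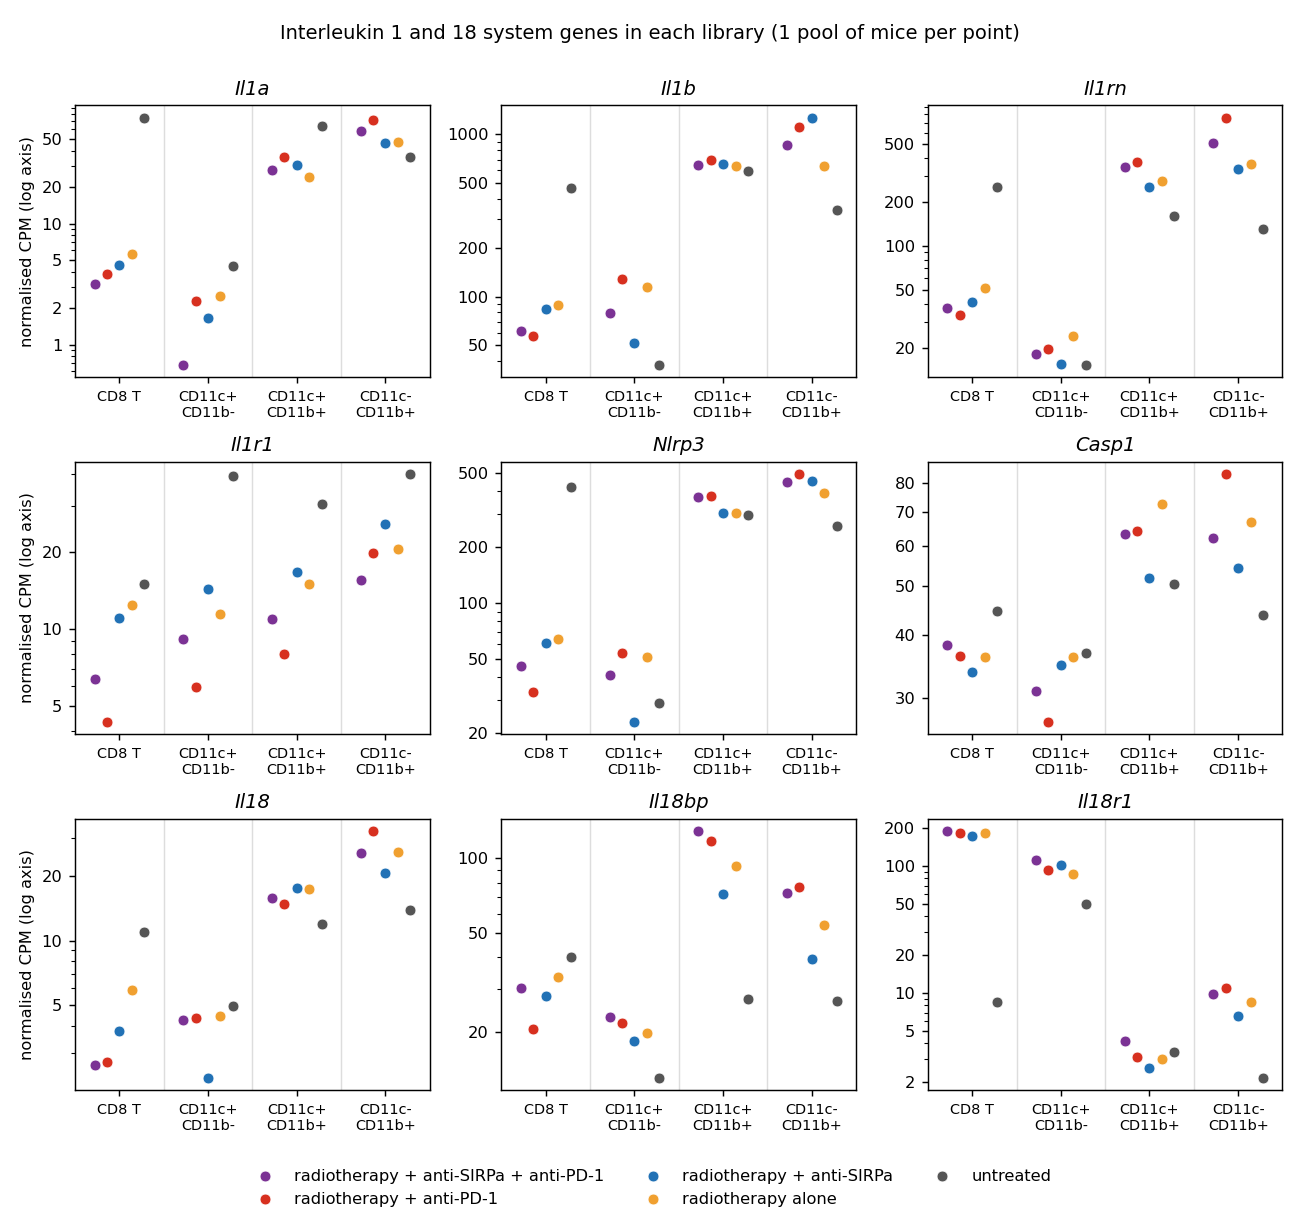
Normalised CPM (log axis, a separate scale for each gene) of the 9 genes in the 4 populations, 1 point per library, coloured by treatment. Il1b, Il1rn and Nlrp3 were highest in the CD11b+ populations, at 344 to 1265, 131 to 757 and 260 to 493 CPM, apart from the library labelled untreated CD8 T, and Il18r1 was highest in the 4 irradiated CD8 T libraries, at 172 to 189 CPM.

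Il1a, the agonist that is active without cleavage, followed the same division at a lower level. In CD11c-CD11b+ cells it was at 57.8 CPM with the triple combination, 71.7 with RT and anti-PD-1, 46.4 with RT and anti-SIRPa, 47.0 with RT alone and 35.5 untreated. In CD11c+CD11b+ cells the order was turned round, with 27.5 CPM with the triple combination, 35.7 with RT and anti-PD-1, 30.4 with RT and anti-SIRPa and 24.3 with RT alone, against 64.0 untreated. The 4 irradiated pools thus lay above the untreated pool in CD11c-CD11b+ cells and below it in CD11c+CD11b+ cells. CD11c+CD11b- cells held 0.679 to 2.51 CPM in the irradiated pools and 4.44 CPM in the untreated pool. CD8 T cells held 3.14 to 5.65 CPM in the irradiated pools, against 74.9 CPM in the library labelled untreated CD8 T.

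Il1rn, the receptor antagonist, was at 510 CPM with the triple combination, 757 with RT and anti-PD-1, 336 with RT and anti-SIRPa, 362 with RT alone and 131 untreated in CD11c-CD11b+ cells. The corresponding CD11c+CD11b+ libraries held 346 CPM with the triple combination, 376 with RT and anti-PD-1, 255 with RT and anti-SIRPa, 280 with RT alone and 161 untreated. In both populations the untreated pool was the lowest and the anti-PD-1 pools were the highest. CD11c+CD11b- cells held 15.4 to 23.9 CPM in irradiated pools and 15.2 CPM in the untreated pool, and CD8 T cells 33.4 to 51.0 CPM in irradiated pools, against 253 CPM in the library labelled untreated CD8 T.

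Within a library, the length-scaled ratio of Il1rn to Il1b stayed below 1 in all 20 libraries. In CD11c+CD11b+ cells it was 0.380 with the triple combination, 0.382 with RT and anti-PD-1, 0.280 with RT and anti-SIRPa, 0.316 with RT alone and 0.201 untreated. The CD11c-CD11b+ values were 0.434 with the triple combination, 0.476 with RT and anti-PD-1, 0.197 with RT and anti-SIRPa, 0.407 with RT alone and 0.281 untreated. CD11c+CD11b- cells ran the other way, with 0.110 to 0.211 in irradiated pools and 0.277 in the untreated pool. The ratio of Il18bp to Il18 in CD11c+CD11b+ cells was 4.20 with the triple combination, 3.98 with RT and anti-PD-1, 2.09 with RT and anti-SIRPa and 2.60 with RT alone, against 1.00 untreated. In CD11c-CD11b+ cells that ratio lay between 0.860 and 1.26 in irradiated pools and was 0.969 in the untreated pool. CD8 T cells had 2.24 to 5.03 in irradiated pools, against 1.78 in the library labelled untreated CD8 T, and CD11c+CD11b- cells 1.87 to 3.42 in irradiated pools and 1.09 in the untreated pool. By counts not scaled to length, the ratio of Il18bp to Il18 in CD11c+CD11b+ cells was 8.21 with the triple combination, 8.01 with RT and anti-PD-1, 4.12 with RT and anti-SIRPa and 5.37 with RT alone, against 2.28 untreated. In CD11c-CD11b+ cells it was 2.84 with the triple combination, 2.39 with RT and anti-PD-1, 1.92 with RT and anti-SIRPa and 2.10 with RT alone, against 1.93 untreated. The inhibitor thus exceeded the cytokine in irradiated CD11c+CD11b+ cells on both scales, and the pair was near parity in CD11c-CD11b+ cells only when scaled by length. The scaled ratio rests on how counts were assigned to transcripts: Il18bp-202 held 13.6 to 65.4% and Il18bp-203 24.8 to 86.4% of Il18bp counts over the libraries. These ratios are descriptions of single libraries, with no test.

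**Figure D2:**
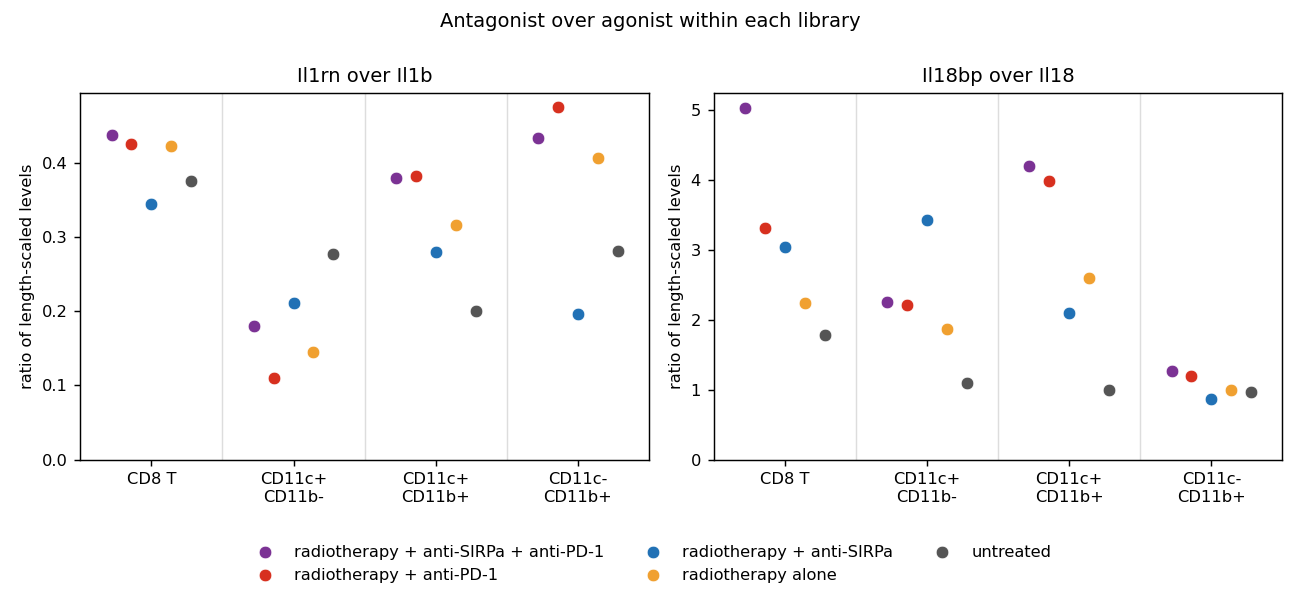
Ratio of length-scaled levels of Il1rn to Il1b (left) and of Il18bp to Il18 (right) in each library, by population and treatment. Both axes start at 0; the Il18bp ratio of CD11c+CD11b+ cells was 2.09 to 4.20 in irradiated pools and 1.00 in the untreated pool.

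Il1r1, the signalling receptor for both agonists, was low everywhere and highest in untreated myeloid cells. It was at 9.13 CPM with the triple combination, 5.93 with RT and anti-PD-1, 14.3 with RT and anti-SIRPa and 11.4 with RT alone in CD11c+CD11b- cells, against 39.3 untreated. CD11c+CD11b+ cells held 10.9 CPM with the triple combination, 8.00 with RT and anti-PD-1, 16.6 with RT and anti-SIRPa and 14.9 with RT alone, against 30.6 untreated. CD11c-CD11b+ cells held 15.5 CPM with the triple combination, 19.7 with RT and anti-PD-1, 25.6 with RT and anti-SIRPa and 20.4 with RT alone, against 40.0 untreated. In all 3 populations the untreated pool lay above every irradiated pool. CD8 T cells held 6.39 CPM with the triple combination, 4.35 with RT and anti-PD-1, 11.0 with RT and anti-SIRPa and 12.4 with RT alone, against 15.0 in the library labelled untreated CD8 T.

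Markers of fibroblasts, cells that express Il1r1, moved with it. The summed level of the 5 markers (Col1a1, Col1a2, Col3a1, Dcn and Pdgfra), none of them at 0 in any library, was 429 to 1624 CPM in irradiated and 6199 CPM in untreated CD11c+CD11b- cells. It was 761 to 1776 CPM in irradiated and 4620 CPM in untreated CD11c+CD11b+ cells, and 1307 to 2870 CPM in irradiated and 6022 CPM in untreated CD11c-CD11b+ cells. In CD8 T cells it was 425 to 1013 CPM in irradiated pools, against 2161 CPM in the library labelled untreated CD8 T. Pearson's r between Il1r1 and this sum, on the log2(CPM + 1) scale, was 0.961 over the 20 libraries and 0.975 over the 15 myeloid libraries; libraries from 1 pool share their mice. The part of fibroblast RNA in the level of Il1r1 was not tested.

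**Figure D3:**
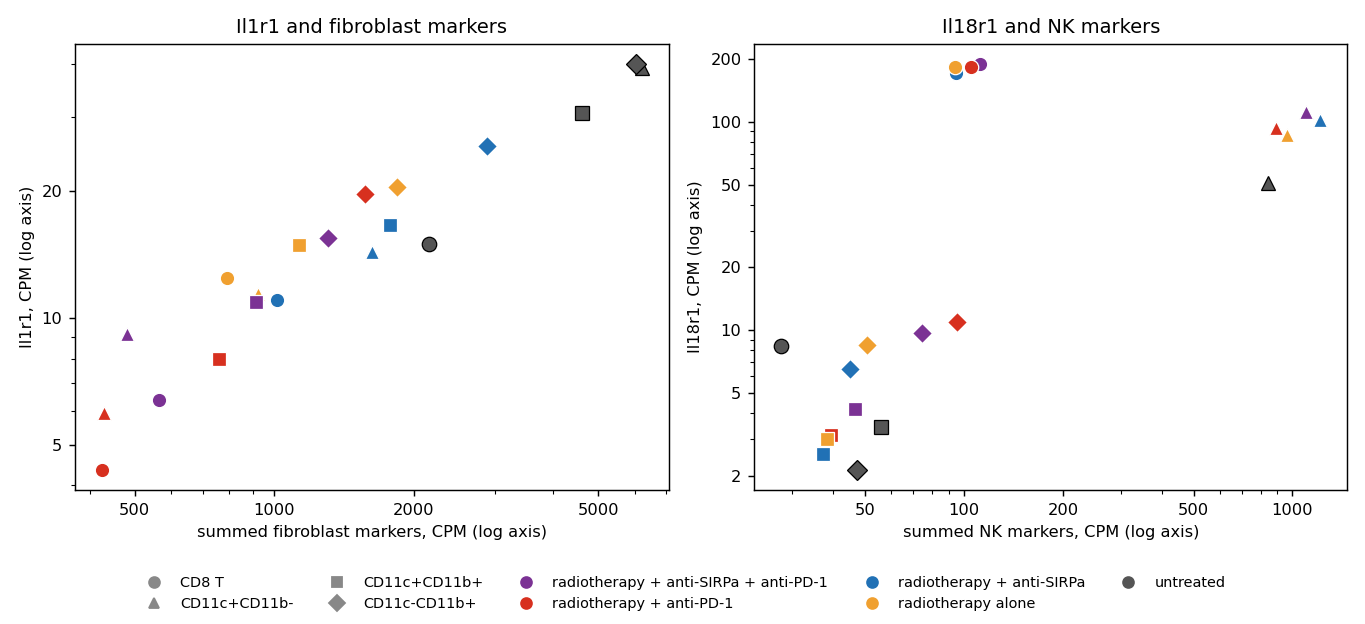
Il1r1 against the summed fibroblast markers (left) and Il18r1 against the summed NK markers (right), in CPM on log axes, 1 point per library, with shape for population and colour for treatment. Il1r1 lay between 30.6 and 40.0 CPM in the 3 untreated myeloid libraries, which also had the highest fibroblast sums, 4620 to 6199 CPM, while Il18r1 was high both in the CD11c+CD11b- libraries with 840 to 1217 CPM of NK markers and in the irradiated CD8 T libraries with 93.8 to 112 CPM.

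Nlrp3, the inflammasome sensor, was at 449 CPM with the triple combination, 493 with RT and anti-PD-1, 453 with RT and anti-SIRPa, 390 with RT alone and 260 untreated in CD11c-CD11b+ cells. It was at 374 CPM with the triple combination, 378 with RT and anti-PD-1, 305 with RT and anti-SIRPa, 304 with RT alone and 298 untreated in CD11c+CD11b+ cells. Both CD11b+ populations stood far above the CD11c+CD11b- cells, at 23.0 to 53.8 CPM in irradiated pools and 29.0 CPM in the untreated pool. CD8 T cells held 33.3 to 64.2 CPM in irradiated pools, against 423 CPM in the library labelled untreated CD8 T. Casp1, the protease that an inflammasome activates, was the most even of the 9 genes. Its range over irradiated pools was 33.7 to 38.1 CPM in CD8 T, 26.9 to 36.2 in CD11c+CD11b-, 51.8 to 72.9 in CD11c+CD11b+ and 54.2 to 83.3 in CD11c-CD11b+ cells. The untreated libraries held 36.8 CPM in CD11c+CD11b-, 50.5 in CD11c+CD11b+ and 43.7 in CD11c-CD11b+ cells, and the library labelled untreated CD8 T 44.5 CPM. On average the CD11b+ populations lay above the other 2, with a smaller gap than for Il1a, Il1b or Il18.

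Il18 was at 25.6 CPM with the triple combination, 32.3 with RT and anti-PD-1, 20.5 with RT and anti-SIRPa, 25.8 with RT alone and 13.8 untreated in CD11c-CD11b+ cells. CD11c+CD11b+ cells held 14.8 to 17.5 CPM in irradiated pools and 11.9 CPM in the untreated pool. The remaining populations were lower, with 2.30 to 4.47 CPM in irradiated and 4.96 CPM in untreated CD11c+CD11b- cells, and 2.64 to 5.92 CPM in irradiated CD8 T cells, against 11.0 CPM in the library labelled untreated CD8 T. Il18bp, the soluble inhibitor, was at 129 CPM with the triple combination, 118 with RT and anti-PD-1, 72.2 with RT and anti-SIRPa and 93.1 with RT alone in CD11c+CD11b+ cells, against 27.2 untreated. The CD11c-CD11b+ libraries held it at 72.7 CPM with the triple combination, 77.1 with RT and anti-PD-1, 39.3 with RT and anti-SIRPa and 54.2 with RT alone, against 26.7 untreated. Every irradiated pool lay above the untreated pool in both populations. Il18bp was at 18.4 to 23.0 CPM in irradiated and 13.1 CPM in untreated CD11c+CD11b- cells, and at 20.6 to 33.4 CPM in irradiated CD8 T cells, against 40.0 CPM in the library labelled untreated CD8 T.

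Il18r1, the receptor chain that binds interleukin 18, had the opposite distribution to the cytokine between the CD11b+ populations and the other populations. It was at 189 CPM with the triple combination, 183 with RT and anti-PD-1, 172 with RT and anti-SIRPa and 183 with RT alone in CD8 T cells, against 8.40 CPM in the library labelled untreated CD8 T. CD11c+CD11b- cells held 112 CPM with the triple combination, 93.0 with RT and anti-PD-1, 102 with RT and anti-SIRPa and 86.8 with RT alone, against 50.6 untreated. The CD11c-CD11b+ libraries held 9.73 CPM with the triple combination, 10.9 with RT and anti-PD-1, 6.54 with RT and anti-SIRPa and 8.51 with RT alone, against 2.13 untreated. CD11c+CD11b+ cells held 2.54 to 4.19 CPM in irradiated pools and 3.44 CPM in the untreated pool. The receptor was thus scarce in the populations in which Il18 and Il18bp were highest. Within the CD11b+ populations the receptor and the cytokine went together. Over all 5 pools, CD11c-CD11b+ cells exceeded CD11c+CD11b+ cells in mean Il18 (23.6 against 15.4 CPM) and Il18r1 (7.57 against 3.26 CPM). Pearson's r between these genes, on the log2(CPM + 1) scale, was 0.89 over the 10 CD11b+ libraries. The 6 NK markers moved with Il18r1 among the myeloid libraries, with a summed level of 891 to 1217 CPM in irradiated and 840 CPM in untreated CD11c+CD11b- cells, 37.2 to 46.7 CPM in irradiated and 56.0 CPM in untreated CD11c+CD11b+ cells, and 44.9 to 95.4 CPM in irradiated and 47.2 CPM in untreated CD11c-CD11b+ cells. None of the 6 was at 0 in any library, and their part in the level of Il18r1 was not tested.

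The order of the population means and the overlap of their ranges were read first over the 4 irradiated pools, which leaves out the library labelled untreated CD8 T. The share of all genes with such gaps was not counted, so the gaps are descriptions and not particular to the 9 genes. In the tests below, 21.4, 41.6 and 43.3% of all genes passed between pairs of myeloid populations. From the highest mean down, Il1a ran CD11c-CD11b+ (55.7 CPM), CD11c+CD11b+ (29.5), CD8 T (4.28) and CD11c+CD11b- cells (1.79), with no overlap between neighbours. Il1b ran CD11c-CD11b+ (969 CPM), CD11c+CD11b+ (661), CD11c+CD11b- (93.0) and CD8 T cells (73.1), with a gap only below the CD11b+ populations. Il18r1 ran CD8 T (182 CPM), CD11c+CD11b- (98.4), CD11c-CD11b+ (8.92) and last CD11c+CD11b+ cells (3.21), with no overlap between neighbours. For Il18 and Nlrp3 the 2 CD11b+ populations were apart from each other and from the remaining populations, which overlapped. For Il18bp and Casp1 the only gap lay below the CD11b+ populations. Il1rn had gaps below the CD11b+ populations and between CD8 T (40.8 CPM) and CD11c+CD11b- cells (19.3), while all neighbours overlapped for Il1r1.

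Over all 5 pools, with that library among the values, fewer neighbours were apart. Il1b and Il18 then ran CD11c-CD11b+, CD11c+CD11b+, CD8 T and CD11c+CD11b- cells, with a gap only between CD11c+CD11b+ and CD8 T cells. Casp1 kept its gap between CD11c+CD11b+ and CD8 T cells, Il1rn had one only between CD8 T and CD11c+CD11b- cells, and Il18r1 only below the CD11c+CD11b- cells. Neighbours overlapped throughout for Il1a, Il1r1, Il18bp and Nlrp3.

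CD11c+CD11b- cells were set against each CD11b+ population with the pool as a term, a comparison of cells sorted from the same tumours. Against CD11c+CD11b+ cells, 1 of the 9 genes was higher and 7 were lower at an adjusted p under 0.05, where 41.6% of all 20905 genes tested passed (edgeR's quasi-likelihood F-test, Benjamini-Hochberg adjustment over all genes, as throughout). The log2 fold change (± SE) was -4.05 ± 0.26 for Il1a, -3.91 ± 0.16 for Il1rn, -3.14 ± 0.18 for Nlrp3 and -3.13 ± 0.26 for Il1b. It was -2.06 ± 0.21 for Il18bp, -1.95 ± 0.22 for Il18 and -0.88 ± 0.12 for Casp1, against 4.73 ± 0.21 for Il18r1. Il1r1, at -0.19 ± 0.13, did not pass (adjusted p = 0.283). The median over the 9 was -2.06, beside 0.00 over all genes tested. Against CD11c-CD11b+ cells, 1 gene was higher and 8 were lower, where 43.3% of 21282 genes passed, with log2 fold changes from -4.56 ± 0.44 for Il1a to 3.67 ± 0.22 for Il18r1 and a median of -2.51, beside -0.01 over all genes. Il1r1 was the weakest call there at -0.82 ± 0.22 (adjusted p = 0.0191), and it was lost without the RT-alone pool, without the RT and anti-SIRPa pool or without the triple combination pool, with log2 fold changes of -0.82 to -0.86.

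The CD11c+CD11b+ and CD11c-CD11b+ populations differed in fewer of the genes. In CD11c+CD11b+ cells Il18bp was higher by a log2 fold change of 0.61 ± 0.12 (adjusted p = 0.00797), and Il1r1 (-0.67 ± 0.14, adjusted p = 0.00982), Il18 (-0.60 ± 0.14, adjusted p = 0.0191) and Il18r1 (-1.11 ± 0.33, adjusted p = 0.0462) were lower, where 21.4% of 20826 genes passed. Il1a, Il1b, Il1rn, Nlrp3 and Casp1 did not pass, with log2 fold changes of -0.59, -0.28, -0.43, -0.30 and -0.04. Pools decided this count: 8 of the 9 genes passed without the untreated pool, where 23.2% of all genes passed. There were 2 without the RT-alone pool (13.2% of all genes) or the triple combination pool (14.8%), and 0 without the pool term (5.07%). Il18r1 did not pass without any 1 of the 4 irradiated pools, with log2 fold changes of -0.90 to -1.05, and Il18 did not pass without the RT-alone pool (-0.60) or the triple combination pool (-0.55).

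The CD8 T libraries were set against the average over the 3 myeloid populations. With all 20 libraries Il18r1 was higher by a log2 fold change of 3.28 ± 0.35, and Il18 (-1.22 ± 0.31), Il1r1 (-0.87 ± 0.18) and Casp1 (-0.41 ± 0.13) were lower, where 33.7% of 21607 genes passed. Without the library labelled untreated CD8 T all 9 passed, where 49.1% of all genes did. The log2 fold change was then 3.67 ± 0.18 for Il18r1, -2.43 ± 0.29 for Il1b, -1.86 ± 0.22 for Nlrp3, -1.80 ± 0.25 for Il1rn and -1.78 ± 0.32 for Il1a. With it, Il1b was at -1.46 ± 0.54 (adjusted p = 0.0503), Nlrp3 at -0.89 ± 0.50, Il1rn at -0.82 ± 0.52 and Il1a at -0.80 ± 0.52. The count was also 2 rather than 4 without the pool given RT and anti-PD-1 (21.8% of all genes) or without the triple combination pool (20.7%), where Il18 (-0.99 and -1.0) no longer passed, and Casp1 did not pass without any 1 irradiated pool (-0.35 to -0.40).

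The related genes were counted in 6 lists of the pathway. The IL-18 responder list (6 genes of interleukin 18 receptor signalling and its effectors) passed in full: all 6 were higher in CD11c+CD11b- cells when set against CD11c+CD11b+ cells, with a median log2 fold change of 4.77, and likewise against CD11c-CD11b+ cells, with a median of 3.93. Examples against CD11c+CD11b+ cells are the cytokine gene Ifng at 4.99 ± 0.18, the pore-forming Prf1 at 4.78 ± 0.22, the granzyme Gzmb at 4.77 ± 0.24 and the transcription factor Tbx21 at 4.77 ± 0.21. All 4 are textbook genes of NK and T cells, and the NK marker sums above apply to them too. Of the receptor genes, Il18rap, the partner of Il18r1, was higher by 2.91 ± 0.21 and Sigirr, an inhibitory receptor, by 2.10 ± 0.18.

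The inflammasome list ran the other way against CD11c+CD11b+ cells, where 41.6% of all 20905 genes tested passed. Of its 17 genes, 14 were lower and 0 higher in CD11c+CD11b- cells, among them Mefv, which encodes pyrin (-4.15 ± 0.22), Nlrc4 (-3.24 ± 0.17), Nlrp1a (-2.99 ± 0.16) and Nlrp1b (-2.47 ± 0.23). Of 7 genes of pyroptosis and release, 5 were lower, including the myeloid amplifier Trem1 (-4.23 ± 0.11), the ATP receptor P2rx7 (-2.84 ± 0.18) and the membrane-rupture protein Ninj1 (-2.37 ± 0.13), while the channel gene Panx1 was higher at 0.91 ± 0.12. Of 13 tested genes known to be induced by interleukin 1, 9 were lower and 1 was higher, with the neutrophil chemokines Cxcl3 at -4.27 ± 0.14 and Cxcl2 at -4.15 ± 0.21, Ccl2 at -2.40 ± 0.31 and the prostaglandin synthase Ptgs2 at -2.15 ± 0.34. The MyD88 list was mixed, with 4 higher and 7 lower of 18, a median of -0.04, and its inhibitor Irak3 at -3.64 ± 0.12. Of the IL-1 family list 8 of 16 genes passed the count filter, 2 higher and 4 lower, with the agonist Il1f9 at -4.00 ± 0.51 and the receptor Il1rl2 at -2.79 ± 0.14. Between the CD11b+ populations, Il1f9 (-3.04 ± 0.38) and the shared receptor chain Il1rap (-1.07 ± 0.14) were lower on the CD11c+ side.

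Irradiated pools, with and without antibodies, were set against the untreated pool in each population, 5 days after irradiation. The fit had no antibody term, so its values join irradiation with any effect of the antibodies on the 9 genes. In CD8 T cells 1 gene was higher and 5 were lower, where 24.4% of 21121 genes passed: Il18r1 at 4.42 ± 0.17, Il1a at -4.15 ± 0.25, Nlrp3 at -3.07 ± 0.28, Il1b at -2.69 ± 0.22, Il1rn at -2.66 ± 0.19 and Il18 at -1.56 ± 0.43, the last not passing without the RT and anti-SIRPa pool (-1.59) or the triple combination pool (-1.44). These are also the genes that divide CD8 T from CD11b+ cells, and they are set here against the library labelled untreated CD8 T. Its 10 macrophage markers summed to 17966 CPM, against 1093 to 2491 CPM in the irradiated CD8 T pools, and its 10 CD8 T markers to 201 CPM, against 2881 to 4421 CPM. No comparison of irradiated with untreated CD8 T cells is possible without it, and the part of those cells in these differences was not tested. All 6 of the IL-18 responder list were higher in irradiated CD8 T cells, and 8 of the 17 inflammasome genes were lower, among them Nlrc4 at -2.72 ± 0.41.

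In the myeloid populations 0 of the 9 genes passed, where the share of all genes that passed by edgeR was 0.343% of 20995 in CD11c+CD11b+, 0.0190% of 21046 in CD11c+CD11b- and 0.00470% of 21292 in CD11c-CD11b+ cells. At an unadjusted p under 0.05 there were 5 genes in CD11c+CD11b+, 3 in CD11c+CD11b- and 7 in CD11c-CD11b+ cells, and DESeq2 called 4, 2 and 6. Over all genes, an unadjusted p under 0.05 was found for 15.8, 22.5 and 19.0%, and DESeq2 called 5.94, 13.0 and 6.27% in the same order. In CD11c+CD11b+ cells the log2 fold change was 1.91 ± 0.35 for Il18bp (adjusted p = 0.0747), 0.96 ± 0.25 for Il1rn (adjusted p = 0.158), -1.13 ± 0.21 for Il1a (adjusted p = 0.0808) and -1.29 ± 0.34 for Il1r1 (adjusted p = 0.151), and these are the 4 that DESeq2 called. Il1b, at 0.14 ± 0.13, and Nlrp3, at 0.18 ± 0.18, were close to 0. In CD11c+CD11b- cells Il1r1 was at -2.03 ± 0.38 (adjusted p = 0.086) and Il18r1 at 0.88 ± 0.17 (adjusted p = 0.087), and DESeq2 called both. The 10 CD8 T markers moved with Il18r1 there, at 172 to 201 CPM in irradiated pools and 65.7 CPM in the untreated pool, and their part was not tested. Il1b was at 1.22 ± 0.51 there (adjusted p = 0.226), beside mature dendritic cell markers (6 genes, none at 0) that summed to 819 to 1925 CPM in irradiated pools and 438 CPM in the untreated pool, whose part was not tested.

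CD11c-CD11b+ cells had the most even pattern after irradiation. Log2 fold changes were 2.04 ± 0.39 for Il18r1, 1.89 ± 0.51 for Il1rn, 1.47 ± 0.40 for Il1b, 1.16 ± 0.40 for Il18bp, 0.76 ± 0.19 for Nlrp3 and -1.01 ± 0.25 for Il1r1, with adjusted p from 0.173 to 0.214. The lack of calls in the myeloid populations depended on the fit. Adding antibody terms gave calls among the 9 genes in CD11c+CD11b+ and CD11c+CD11b- cells, but not in CD11c-CD11b+ cells. Without the pool given RT and anti-SIRPa, 7 of the 9 genes passed in CD11c-CD11b+ cells, 4 in CD11c+CD11b+ cells and 3 in CD11c+CD11b- cells. Over all genes, 16.1, 7.66 and 14.7% passed in the same order. Without that pool the log2 fold change was 2.06 ± 0.22 for Il18bp in CD11c+CD11b+ cells and 1.43 ± 0.28 for Il1b in CD11c+CD11b- cells, and 2.04 ± 0.42 for Il1rn in CD11c-CD11b+ cells. Of the pathway lists, 1 gene passed in a myeloid population, the chemokine Cxcl1 in CD11c+CD11b+ cells, which fell by 1.96 ± 0.21 on the log2 scale (adjusted p = 0.0437). Cxcl1 was at 35.4 CPM with the triple combination, 38.3 with RT and anti-PD-1, 55.6 with RT and anti-SIRPa and 43.6 with RT alone, against 167 untreated. The fibroblast sums above moved with it, and their part was not tested. The 72 genes called in that comparison became 1 without the RT-alone pool, 1 without the triple combination pool and 4 without the count filter.

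**Figure D4:**
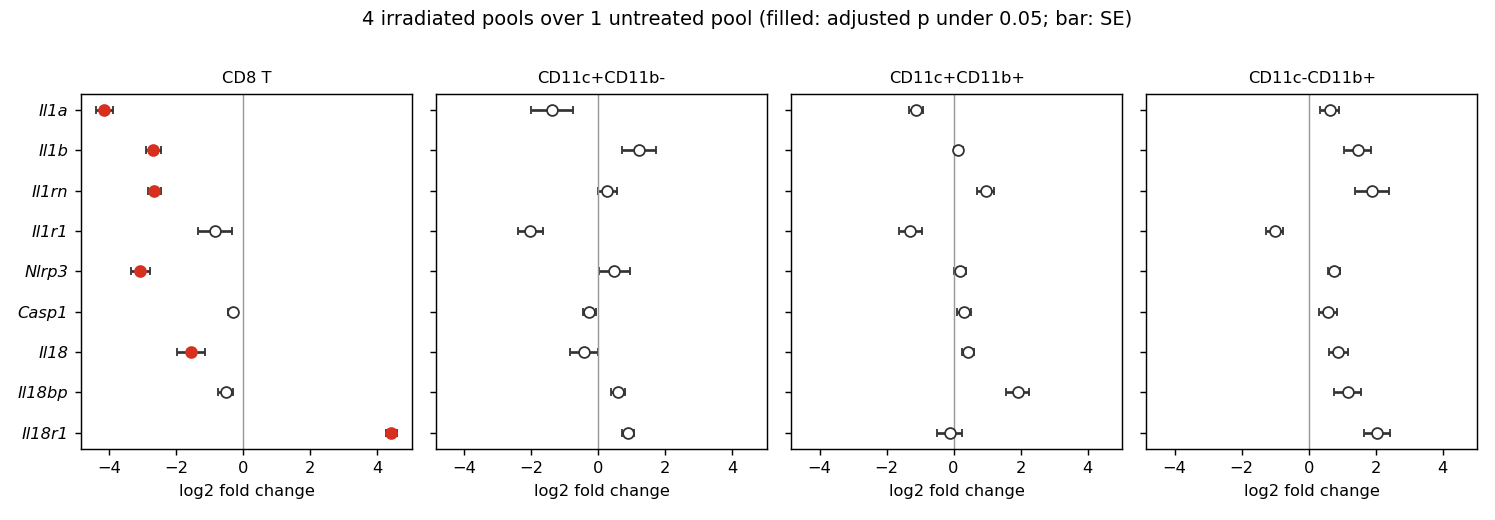
Log2 fold change of the 9 genes in the 4 irradiated pools (RT alone and RT with antibodies) over the untreated pool in each population. Bars show the SE and filled points an adjusted p under 0.05. Filled points are found only in CD8 T cells, where the untreated library went against its label; Il18bp in CD11c+CD11b+ cells was at 1.91 ± 0.35 and did not pass.

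Whether the response to irradiation differed between populations was tested with an interaction term. Il1a passed between CD11c+CD11b+ and CD11c-CD11b+ cells, with a difference of -1.73 ± 0.20 on the log2 scale (adjusted p = 0.0182), where 0.335% of 22061 genes passed. It rests on 1 untreated library in each population, and it was lost without the triple combination pool (-1.72 ± 0.23). Differences that did not pass were -2.13 ± 0.38 for Il18r1 (adjusted p = 0.0794), 0.78 ± 0.17 for Il18bp (adjusted p = 0.145) and -1.27 ± 0.32 for Il1b (adjusted p = 0.224), and DESeq2 called 5 of the 9, where it called 1.53% of all genes and 8.16% had an unadjusted p under 0.05. Between CD11c+CD11b- and CD11c+CD11b+ cells 0 of the 9 passed by edgeR, where 0.982% of 22301 genes passed, with 4 at an unadjusted p under 0.05 and 2 called by DESeq2, beside 15.6 and 4.85% of all genes. The closest there was Il18bp at -1.21 ± 0.22 (adjusted p = 0.0658). The decoy receptor gene Il1r2 passed there at 2.16 ± 0.32. Between the CD11b+ populations 6 genes of the pathway lists passed, all with the sign of Il1a. Of all 74 genes called there, 66 had that sign and 8 the other. The 6 were Cxcl3 at -2.61 ± 0.20, Il1f9 at -2.33 ± 0.30, Gzmb at -2.06 ± 0.27, Prf1 at -1.97 ± 0.29, Ptgs2 at -1.25 ± 0.19 and Mefv at -1.0 ± 0.14. Cxcl3 was at 63.7 CPM with the triple combination, 116 with RT and anti-PD-1, 87.1 with RT and anti-SIRPa and 61.0 with RT alone in CD11c+CD11b+ cells, against 135 untreated. The CD11c-CD11b+ libraries held 244 CPM with the triple combination, 527 with RT and anti-PD-1, 318 with RT and anti-SIRPa and 204 with RT alone, against 82.7 untreated.

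Anti-PD-1, an antibody to the T cell checkpoint receptor, was tested as 2 irradiated pools with it against 2 without it, with anti-SIRPa as a term. In CD11c+CD11b+ cells Il18bp rose by 0.62 ± 0.11 on the log2 scale (adjusted p = 0.0243) and Il1rn by 0.46 ± 0.09 (adjusted p = 0.0263), and Il1r1 fell by 0.72 ± 0.15 (adjusted p = 0.0377), where 6.66% of 19191 genes passed. Il18bp was thus at 129 and 118 CPM with anti-PD-1, against 72.2 and 93.1 CPM without, and Il1rn at 346 and 376 CPM with, against 255 and 280 CPM without. The groups did not overlap for either inhibitor or for Il1r1, which passed, nor for Nlrp3, Il18 and Il18r1, which did not pass. Il18 and Il18r1 were not at an unadjusted p under 0.05 either. The share of all genes without overlap was not counted, so the lack of overlap is a description and not particular to these genes. Nlrp3, called there by DESeq2 but not by edgeR, was at 374 and 378 CPM with anti-PD-1, against 305 and 304 CPM without. In CD8 T cells Il1r1 fell by 1.13 ± 0.22 (adjusted p = 0.0273), Nlrp3 by 0.67 ± 0.12 (adjusted p = 0.0202) and Il1b by 0.54 ± 0.08 (adjusted p = 0.0105), where 6.97% of 18784 genes passed. Il1b was at 61.4 and 57.3 CPM with anti-PD-1, against 84.3 and 89.2 CPM without. Il18r1, at 0.07 ± 0.07, and Casp1, at 0.10 ± 0.10, did not pass.

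Markers of other cells moved with these calls. The 10 macrophage markers summed to 1750 and 1093 CPM in CD8 T libraries with anti-PD-1, against 2319 and 2491 CPM without. The 5 fibroblast markers summed to 564 and 425 CPM in CD8 T cells with anti-PD-1, against 1013 and 791 CPM without, and to 912 and 761 CPM in CD11c+CD11b+ cells with it, against 1776 and 1130 CPM without. Their part in the lower Il1b, Nlrp3 and Il1r1 was not tested. The 10 CD8 T markers summed to 4209 and 4421 CPM in CD8 T libraries with anti-PD-1, against 2881 and 3031 CPM without. Of the IL-18 responder list 4 of 6 genes rose in CD8 T cells, with Prf1 at 0.91 ± 0.09, Gzmb at 0.89 ± 0.08, Ifng at 0.75 ± 0.07 and Tbx21 at 0.37 ± 0.08, and 4 of 6 rose in CD11c+CD11b+ cells, with Stat4 at 0.83 ± 0.13, beside NK markers at 46.7 and 39.2 CPM with anti-PD-1, against 37.2 and 38.2 CPM without. Over all genes, 6.97% passed in CD8 T and 6.66% in CD11c+CD11b+ cells. The chemokine genes Ccl4 (0.86 ± 0.09) and Ccl3 (0.84 ± 0.10) rose in CD8 T cells, and Ptgs2 (-0.80 ± 0.08) and Cxcl1 (-0.91 ± 0.16) fell. These tests have 1 residual degree of freedom, and all 6 calls among the 9 genes ended when the filter on low counts or the anti-SIRPa term was dropped, and Il1r1 in CD11c+CD11b+ cells also by DESeq2 (adjusted p = 0.0831).

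In the other myeloid populations 0 of the 9 genes passed with anti-PD-1 by edgeR, where 4.10% of 19130 genes passed in CD11c+CD11b- cells and 0% of 19468 in CD11c-CD11b+ cells. There were 3 and 4 of the 9 at an unadjusted p under 0.05, and DESeq2 called 0 and 2. Over all genes these shares were 24.9 and 15.1% at that p, and 4.62 and 2.74% by DESeq2. In CD11c-CD11b+ cells those 2 were Il1rn, at 0.86 ± 0.18 (adjusted p = 0.139), and Il18bp, at 0.72 ± 0.15 (adjusted p = 0.139), the same inhibitors as in CD11c+CD11b+ cells. The other genes of the 4 there were the agonist Il1a and the cytokine Il18. Il1a was at 57.8 and 71.7 CPM with anti-PD-1, against 46.4 and 47.0 CPM without, and Il18 at 25.6 and 32.3 CPM with, against 20.5 and 25.8 CPM without. Il1rn was there at 510 and 757 CPM with anti-PD-1, against 336 and 362 CPM without. Macrophage markers moved with Il1rn and Il18bp, at 7522 and 7323 CPM with anti-PD-1, against 3857 and 5249 CPM without. NK markers did too, at 74.7 and 95.4 CPM with, against 44.9 and 50.6 CPM without. In CD11c+CD11b+ cells, where both inhibitors passed, the macrophage markers summed to 12765 and 10494 CPM with anti-PD-1, against 13339 and 11016 CPM without. The part of macrophages and NK cells was not tested. In CD11c+CD11b- cells 3 of the 12 tested genes of the list induced by interleukin 1 fell, Ptgs2 (-1.04 ± 0.10), Cxcl1 (-1.16 ± 0.13) and Ccl2 (-0.96 ± 0.13), and 9 did not pass. Fibroblast markers moved with these 3, at 482 and 429 CPM with anti-PD-1, against 1624 and 921 CPM without, and their part was not tested. The 785 genes called in that comparison became 0 without the count filter and 1 without the anti-SIRPa term. The response to anti-PD-1 was not shown to differ between populations for any of the 9 by edgeR: 0 passed between CD11c+CD11b- and CD11c+CD11b+ cells, where 0.191% of 20417 genes passed, and 0 between CD11c+CD11b+ and CD11c-CD11b+ cells, where 0.0246% of 20361 passed. At an unadjusted p under 0.05 there were 4 and 2 of the 9, beside 9.59 and 4.58% of all genes, and DESeq2 called 0 in both, beside 0.470 and 0.103%. Gzmb (-0.97 ± 0.11) and Prf1 (-0.89 ± 0.09), of the responder list, passed between CD11c+CD11b- and CD11c+CD11b+ cells.

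Anti-SIRPa, which blocks a phagocytosis checkpoint of myeloid cells, was tested in the same way with anti-PD-1 as a term. None of the 9 genes passed by edgeR, where 0.101% of 18784 genes passed in CD8 T, 0.156% of 19191 in CD11c+CD11b+, 0.00523% of 19130 in CD11c+CD11b- and 0% of 19468 in CD11c-CD11b+ cells. At an unadjusted p under 0.05 there were 0, 1, 5 and 2 of the 9, and DESeq2 called 0, 0, 2 and 0. Over all genes these shares were 9.77, 11.4, 12.3 and 4.36% at that p, and 0.245, 0.589, 1.44 and 0.0668% by DESeq2. The 2 were Il1b (-0.92 ± 0.12, adjusted p = 0.114) and Nlrp3 (-0.77 ± 0.18, adjusted p = 0.178) in CD11c+CD11b- cells. Nlrp3 was at 40.9 and 23.0 CPM with anti-SIRPa there, against 53.8 and 51.3 CPM without. Il1b was at 79.1 and 51.5 CPM with, against 128 and 114 CPM without. Mature dendritic cell markers moved with them, at 1452 and 819 CPM with anti-SIRPa against 1925 and 1649 CPM without, and their part was not tested.

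**Figure D5:**
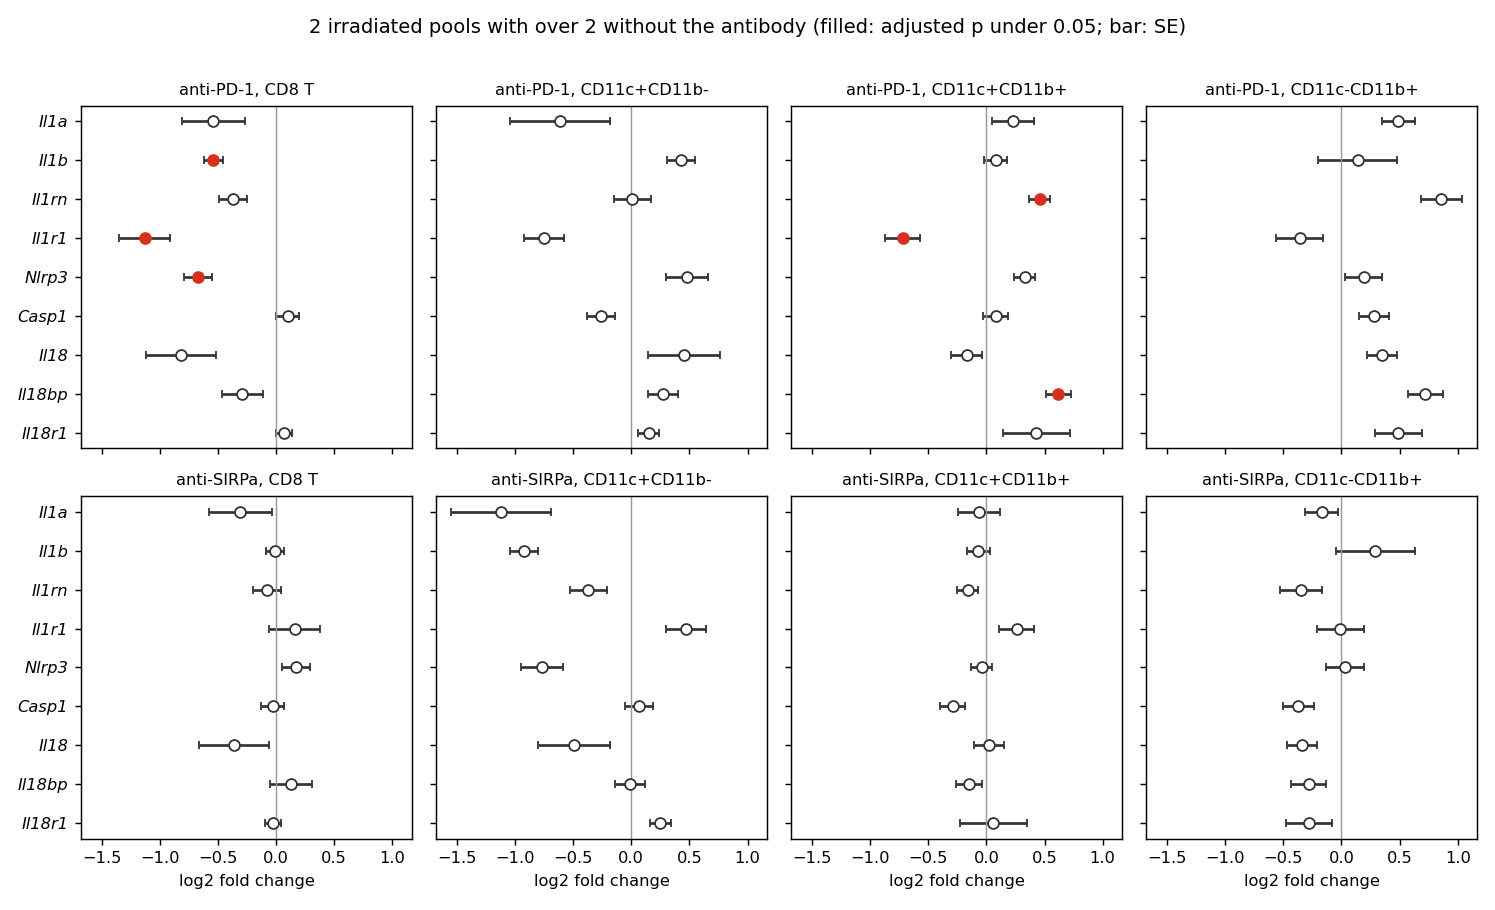
Log2 fold change of the 9 genes for anti-PD-1 (upper row) and anti-SIRPa (lower row) in irradiated pools of each population, 2 pools with over 2 without the antibody, with bars for the SE and filled points for an adjusted p under 0.05. Filled points are Il1b, Il1r1 and Nlrp3 in CD8 T cells (-0.54, -1.13 and -0.67) and Il1rn, Il1r1 and Il18bp in CD11c+CD11b+ cells (0.46, -0.72 and 0.62), all for anti-PD-1.

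The triple combination and RT alone are 1 library each in a population, so their ratio has no test, and its 95% interval covers counting error only. Among CD11c-CD11b+ cells the log2 ratio was 0.49 (0.46 to 0.53) for Il1rn, 0.42 (0.39 to 0.45) for Il1b and 0.42 (0.32 to 0.53) for Il18bp. For CD11c+CD11b+ cells the log2 ratio came to 0.47 (0.40 to 0.54) for Il18bp, 0.30 (0.26 to 0.35) for Il1rn and 0.01 (-0.02 to 0.04) for Il1b. The antagonists were higher with the triple combination in both populations, and the agonist Il1b in CD11c-CD11b+ cells alone. The rise was not confined to antagonists. In CD11c-CD11b+ and CD11c+CD11b+ cells, the agonist Il1a was at 0.30 (0.19 to 0.41) and 0.18 (0.03 to 0.33), and Nlrp3 at 0.20 and 0.30. In the same order Il1r1 was at -0.40 and -0.45, and Casp1 at -0.11 and -0.20. Il1b was lower in CD11c+CD11b- cells, at -0.52 (-0.60 to -0.44), and Il1a lower still, at -1.78 (-2.73 to -1.12), from 18 counts with the triple combination and 68 with RT alone.

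The deposited transcripts give some view of the isoforms. Il1rn (chr2:24336853-24351494, plus strand, GRCm38) has 2 groups of starts, and in the human gene the upstream first exon is known to give intracellular forms and the downstream one the secreted form. Transcripts from the upstream start, chiefly Il1rn-204, held 34.6 ± 2.75% of Il1rn counts in CD11c+CD11b+ cells, 37.4 ± 2.55% in CD11c-CD11b+ cells, 29.7 ± 4.27% in CD11c+CD11b- cells and 32.7 ± 10.1% in CD8 T cells (SD, n = 5 pools each). Without the library labelled untreated CD8 T the CD8 T value was 30.5 ± 10.1% (SD, n = 4). The downstream transcript Il1rn-201 held a median of 56.5% of the counts over the 20 libraries. The antagonist was thus counted mostly from the downstream start in every population, with the wider spread where Il1rn was low. Il1b-201, the coding transcript of Il1b (chr2:129364570-129371139, minus strand), held 94.1 to 97.2% of Il1b counts, and a transcript with a retained intron, Il1b-203, 2.70 to 5.57%. The 2 main Nlrp3 transcripts could not be told apart reliably: Nlrp3-201 held 0 to 95.7% and the other, which starts further downstream, 3.75 to 99.4% of the Nlrp3 counts. The assignment of reads between such overlapping transcripts is an estimate. The CPM values and the tests use sums per gene, while the length-scaled levels and ratios depend on that assignment.

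The genes most like each of the 9 were read from Pearson's r of log2(CPM + 1) over the 20 libraries, among 9501 genes with a mean of at least 10 CPM. Il1b was near to Cd300lf (0.985) and Plaur (0.985), Il1rn to Fpr2 (0.993), Tfec (0.990) and Ccr1 (0.990), and Il1a to F13a1 (0.977), Hmox1 (0.976) and Cxcl2 (0.975). Nlrp3 was near to Pygl (0.992) and Tpd52 (0.987). The receptor Il1r1 lay nearest to Cpe (0.984), Pls3 (0.983) and Medag (0.982), none of which is near another of the 9, and Il18r1 nearest to the T cell receptor gene Trbc1 (0.996), Prkcq (0.995) and the NK receptor gene Klrc1 (0.995). Il18 was nearest to Vps26a (0.969), Il18bp to Ncoa1 (0.967) and Casp1 to Lgals8 (0.967). The libraries share pools and populations, so these values describe the 20 libraries and are not tests.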

How the data were processed

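RNA-seq libraries of 4 sorted populations under 5 treatments were analysed. The authors deposited whole-number estimated counts per transcript. The submitters' processing notes name GRCm38, HISAT2, StringTie, FastQC 0.11.8 and edgeR 3.34.0, without saying how each was used, and give no version for the aligner or counter. Here 141469 of 142699 transcripts were matched to GENCODE M21 and added up per gene; the remaining 1230 took no more than 0.4% of any library. The estimated counts held no fractions. Levels are TMM-normalised CPM. TPM came from each transcript's annotated exon length. Tests used edgeR 4.0.16 (R 4.3.3) on genes passing filterByExpr (minimum count 10, minimum total 15), with SE taken as the log2 fold change over the root of F. DESeq2 1.42.0 was an alternative. Fits were tried on simulated counts with the same spread for every gene and no differences between pools. Genes with few counts were left unchanged there, so the recoveries need not hold for the real pools. Of 100 changes of 2-fold, 100 were recovered for CD11c+CD11b- against CD11c+CD11b+ cells. In CD11c+CD11b+ cells 70 were recovered for irradiation and 77 for anti-PD-1. For the irradiation difference between CD11c+CD11b- and CD11c+CD11b+ cells it was 25. Of 100 changes of 4-fold, 96 to 100 were recovered, and 2 to 9 unchanged genes were called in a fit. The treatment pool was a term in comparisons of populations because their cells came from the same tumours. Sequences are RefSeq's. Figures used matplotlib 3.10.9.

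The members and lists were chosen with earlier results of these data known. All 9 members are described. Of each pathway list, up to 4 genes per comparison are eligible, those that passed with the largest change and reached 10 CPM in 2 libraries. Each population and treatment had 1 pool, so p-values measure the spread between pools and not between mice. Of the genes most like each member, 1 is not reported here.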

Additional observations from a re-analysis of the deposited data

Results flagged for a closer look

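Each of the 36 sets of 5 libraries, 1 set for each gene and population, was searched for a library far from the other 4, and 8 were found; chance flags about 1 set in 20, and sets of 1 population share their libraries. Of the 8, 5 are the library labelled untreated CD8 T, which stood apart for Il1a at 74.9 CPM, Il1b at 464 CPM, Il1rn at 253 CPM, Nlrp3 at 423 CPM and Il18r1 at 8.40 CPM. The other 3 are the untreated CD11c+CD11b+ library for Il1a, at 64.0 CPM against 24.3 to 35.7 CPM, the untreated CD11c+CD11b- library for Il1r1, at 39.3 CPM against 5.93 to 14.3 CPM, and the CD11c+CD11b- library given RT and anti-SIRPa for Il18, at 2.30 CPM against 4.26 to 4.96 CPM. The last of these is low in a gene of few counts.

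Il1a was the only gene of the 9 with a difference between populations in its response to irradiation that passed in the 4 interaction tests: -1.73 on the log2 scale for CD11c+CD11b+ against CD11c-CD11b+ cells (edgeR, adjusted p = 0.0182). Irradiated pools lay below the untreated pool in CD11c+CD11b+ cells and above it in CD11c-CD11b+ cells.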

How the results depend on the processing

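No log2 fold change that passed turned its direction under any alternative: of 329 refits of called changes, 284 stayed past the threshold and 45 did not. All 144 ratios of single libraries with other prior counts, and 35 of 36 mean levels without TMM, stayed within their error. The exception was Il1b in CD11c+CD11b+ cells, at 605 CPM by total count. Counts of the 9 genes called moved more, and the cause was not tested. For CD11c+CD11b+ against CD11c-CD11b+ cells (4 called) it was 0 without the replicate block, that is without the pool term, 0 in 1 fit of all 20 libraries, and 2 to 8 leaving out a pool. For CD8 T against myeloid cells (4) it was 9 without the library labelled untreated CD8 T and 2 to 9 leaving out a pool. For irradiation in CD11c+CD11b+ cells (0) it was 4 by DESeq2, 4 with antibody terms and 0 to 4 leaving out a pool. In CD11c+CD11b- cells (0) it was 2 by DESeq2, 3 with antibody terms and 0 to 3 leaving out a pool, and in CD11c-CD11b+ cells (0) 6 by DESeq2 and 0 to 7 leaving out a pool. With anti-PD-1 the CD8 T (3) and CD11c+CD11b+ (3) counts were 0 without the count filter and 0 without the anti-SIRPa term. DESeq2 called 2 in CD11c-CD11b+ cells (0) with anti-PD-1 and 2 in CD11c+CD11b- cells (0) with anti-SIRPa. The irradiation difference between CD11c+CD11b- and CD11c+CD11b+ cells (0) gave 2 by DESeq2 and 0 to 2 leaving out a pool. That between CD11c+CD11b+ and CD11c-CD11b+ cells (1) gave 0 without the count filter, 5 by DESeq2 and 0 to 1 leaving out a pool.

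Counts over all genes moved with these. Irradiation called 72 genes in CD11c+CD11b+ cells by edgeR, 1247 by DESeq2 and 1584 without the pool given RT and anti-SIRPa. It called 4 in CD11c+CD11b- cells, 2746 by DESeq2 and 3059 without that pool, and 1 in CD11c-CD11b+ cells, 1336 by DESeq2 and 3393 without it. Anti-PD-1 called 1310 in CD8 T, 1278 in CD11c+CD11b+ and 785 in CD11c+CD11b- cells, 0 in each without the count filter, and 8, 3 and 1 without the other antibody's term. For CD11c+CD11b+ against CD11c-CD11b+ cells the count was 4451, and 955 without the pool term. Of 31 isoform shares, 7 moved when counts were divided by transcript length, among them Il1rn-206 at 14.6%. Depth limits Il1a in CD11c+CD11b- cells, where the lowest library held 18 counts.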
